A study of Homo sapiens with 9 samples.

Results

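The short arm of chromosome 16 (16p) carried 658 of the 27108 CUT&Tag peaks listed for the whole series: 204 of 7027 HA-BAZ2B peaks, 63 of 2451 wild-type (WT) peaks and 391 of 17630 H3K4me3 peaks. A peak was counted on 16p when its summit lay on chromosome 16 below 36600000 in the build hg19, which is the end of the short arm. Members were thus chosen by the measured position of their summits, so their number along the arm is a description and was not tested. The arm was also taken up with earlier results of these lists known, among them its high share of H3K4me3 peaks with HA-BAZ2B. The series has 3 groups of 3 replicates, all of A549, an established line from a human adenocarcinoma of the lung. In the first group, cells whose endogenous BAZ2B gene carries an HA insertion at its 5′ end were profiled with an antibody to HA. In the second, the same tagged line was profiled for H3K4me3. In the third, wild-type A549 cells, which hold no HA tag, were profiled with the anti-HA antibody. The sources used here do not say whether the tagged line is 1 clone, and a siRNA transfection named in the labels is assigned to no library.

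BAZ2B is a bromodomain protein that pairs with ISWI ATPases in complexes that slide nucleosomes. H3K4me3 is a histone mark of active promoters, and in CUT&Tag an antibody guides a transposase to such sites so that the fragments released there can be sequenced. G4 DNA, or G-quadruplexes, named in the series title, are folded stacks of guanines that form readily in G-rich promoters. The ends of 16p are known for gene-dense stretches: 16p13.3 holds the α-globin genes HBA1 and HBA2, the tumour suppressor TSC2 beside PKD1, the Wnt pathway scaffold AXIN1 and the acetyltransferase CREBBP. 16p11.2 is a band with many segmental duplications and holds the kinase genes MAPK3 and TAOK2 and the H3K4 methyltransferase gene SETD1A.

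The label of a gene-dense arm was checked against RefSeq genes of GRCh38.p14. 16p held 480 protein-coding genes, or 13.0 per Mb, against 374 genes or 6.99 per Mb on the long arm (16q) and 6.49 per Mb over all chromosomes. Of the 480, 202 lay in 16p13.3 and 124 in 16p11.2. Peaks are in hg19 and no gene positions of that build were used, so no peak was assigned to a gene.

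G-rich promoters on this arm were read from the RefSeq promoter table, which covers 250 bases before and 50 after each gene's start and held 345 of the 480 genes. The motif searched was 4 runs of GGG or longer, spaced by 1 to 7 bases of any kind, on either strand. It was present in 112 promoters of 16p (32.5%, exact 95% interval 27.5 to 37.7%), against 79 of 266 on 16q (29.7%, 24.3 to 35.6%) and 30.4% of 15843 over all chromosomes. Within the arm, the share was 40.1% (59 of 147, 32.2 to 48.5%) in 16p13.3 and 26.1% (24 of 92, 17.5 to 36.3%) in 16p11.2. Examples from these bands are shown because both bands hold most of the peaks. They were sought in a chosen list of 65 genes of 16p only, of which 49 were in the promoter table and 23 had the motif. In each band, the promoter of highest GC content among these listed genes with the motif upstream of the start is shown. These promoters are from PDPK1 (a kinase of insulin signalling, 80.0% GC) and MAZ (a zinc finger factor that binds G-rich DNA, 88.0% GC). Both are on the plus strand of GRCh38.p14 as given by RefSeq. Positions run from -226 to -165 and from -250 to -192 before the gene's start. Capitals mark a match to the motif, here with its G runs on the opposite strand. In MAZ, further runs lie in the spacers of the match and just beyond it. A match describes the letters and is not a measured structure or binding site.
PDPK1: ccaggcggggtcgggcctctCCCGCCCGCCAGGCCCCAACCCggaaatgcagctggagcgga
MAZ: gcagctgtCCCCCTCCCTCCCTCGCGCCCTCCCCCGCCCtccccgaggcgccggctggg

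HA-BAZ2B peaks numbered 5.57 per Mb on 16p, against 2.33 per Mb on 16q, a ratio of 2.40 (95% interval 1.91 to 3.02, counting error only). WT peaks numbered 1.72 against 0.688 per Mb, a ratio of 2.50 (1.64 to 3.86). For H3K4me3 the values were 10.7 and 6.08 per Mb, a ratio of 1.76 (1.51 to 2.04). The long arm holds a large block of variable heterochromatin. The ratios were also computed with the length of such bands and of the centromere left out and all peaks kept. They were then 2.04 for HA-BAZ2B, 2.13 for WT and 1.50 for H3K4me3. The peaks kept from these bands were 3 HA-BAZ2B, 2 WT and 5 H3K4me3 peaks in 16q11.2 and 3 H3K4me3 peaks in 16p11.1. Each group was deposited as 1 list that holds no values for single replicates, so no count has a replicate error, and the depth of the libraries is unknown.

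The bands 16p13.3 and 16p11.2 were crowded and those between them were sparse. 16p13.3 (chromosome 16, 1 to 7900000) held 81 HA-BAZ2B, 25 WT and 157 H3K4me3 peaks. 16p11.2 (28100001 to 34600000) held 65, 22 and 110. These bands thus had 10.3 and 10.0 HA-BAZ2B peaks per Mb, and the 7 bands between them had 1.15 to 5.00 per Mb. The lowest value of these was that of 16p13.2 (7900001 to 10500000), with 3 HA-BAZ2B, 1 WT and 8 H3K4me3 peaks, and the highest that of 16p13.11 (14800001 to 16800000), with 10, 1 and 18. The counts were 7, 1 and 14 in 16p13.13, 4, 3 and 14 in 16p13.12, 15, 3 and 27 in 16p12.3, 13, 5 and 26 in 16p12.2 and 6, 2 and 14 in 16p12.1. Among the 8 bands of 16p with at least 10 H3K4me3 peaks, the share of these peaks with HA-BAZ2B ran from 28.6% (8.39 to 58.1%) in 16p13.12 to 58.2% in 16p11.2, and the share with a WT peak from 5.56% (0.141 to 27.3%) in 16p13.11 to 21.4% (4.66 to 50.8%) in 16p13.12. Outside 16p13.3 and 16p11.2 these shares rest on 14 to 27 H3K4me3 peaks a band. 16p11.2 had the highest HA-BAZ2B share of these 8 bands of 16p (58.2%, exact 95% interval 48.4 to 67.5%), against 51.0% (42.9 to 59.0%) in 16p13.3, and the intervals overlapped. The centromeric band 16p11.1 had 3 H3K4me3 peaks and no anti-HA peak. The last HA-BAZ2B peak before the boundary was at 33262169 to 33263364 and the first beyond it at 46722304 to 46724328, so no HA-BAZ2B peak lay near the boundary itself. For H3K4me3 these positions were 34979315 to 34979616 and 46654741 to 46655532.

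**Figure D1:**
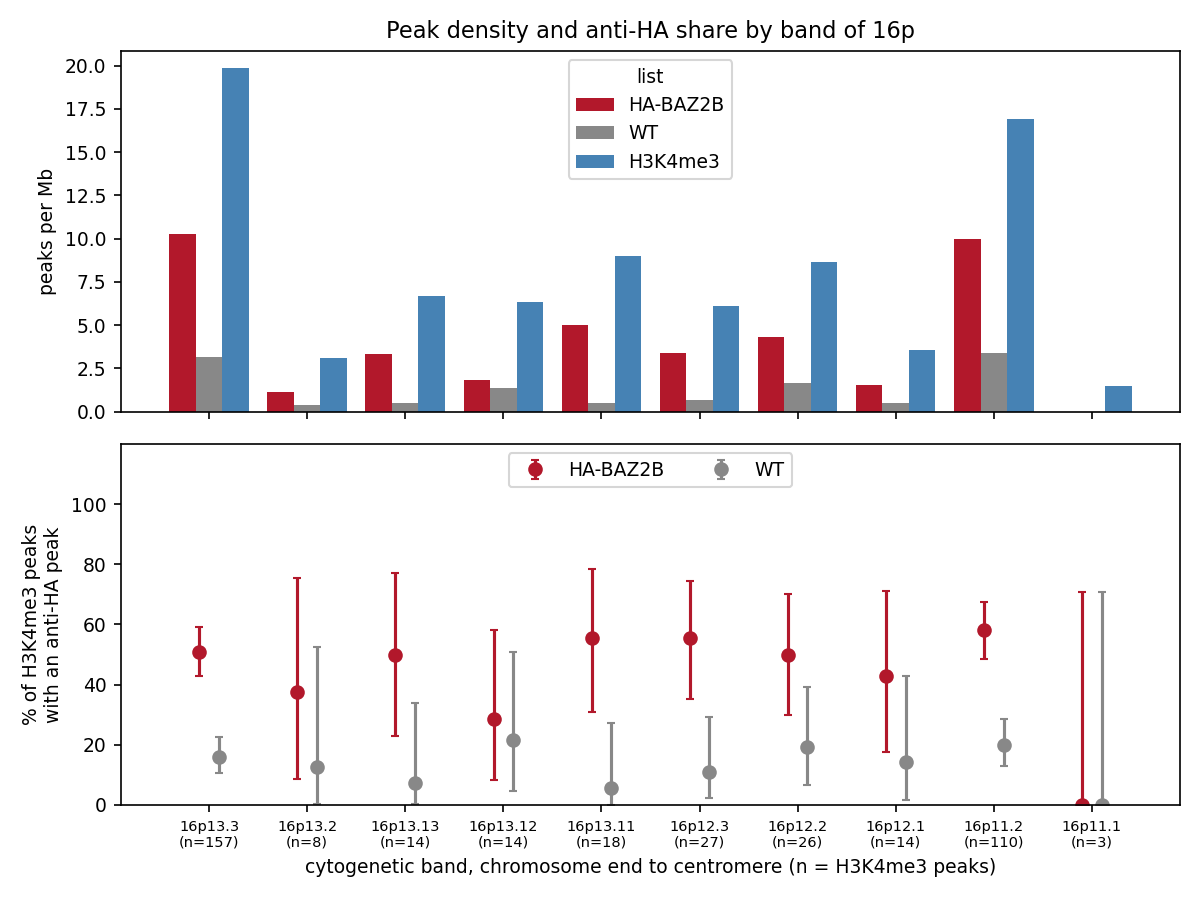
The upper panel shows peaks per Mb in each list and the lower panel the percent of H3K4me3 peaks that overlap an HA-BAZ2B or a WT peak, by band of 16p, with exact 95% binomial intervals. Density is highest in 16p13.3 and 16p11.2, with 10.3 and 10.0 HA-BAZ2B peaks per Mb, while the HA-BAZ2B share stays between 28.6 and 58.2% in every band but the centromeric one, which has 3 H3K4me3 peaks.

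In windows of 1 Mb, the arm was uneven. The fullest window for H3K4me3 ran from 30000001 to 31000000 in 16p11.2, with 28 HA-BAZ2B, 11 WT and 44 H3K4me3 peaks. The window from 2000001 to 3000000 in 16p13.3 followed, with 26, 7 and 42. The next were the first window of the chromosome, with 12, 5 and 32, the one from 3000001 to 4000000, with 17, 6 and 30, and the one from 4000001 to 5000000, with 12, 3 and 26. The 5 fullest windows of each list held 47.5% of the HA-BAZ2B, 52.4% of the WT and 44.5% of the H3K4me3 peaks of the arm. On 16q, these shares were 37.6, 43.2 and 30.6%. 16p has 37 windows and 16q has 55, so 5 windows are a larger part of 16p. These shares therefore do not show which arm was the more uneven. No window of 16q held more than 13 HA-BAZ2B or 30 H3K4me3 peaks.

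Some stretches of the arm had no peak in any list. They were the windows from 6000001 to 8000000 (16p13.3 and the start of 16p13.2), from 13000001 to 14000000 (16p13.12), from 26000001 to 27000000 (16p12.1) and from 35000001 to the boundary. In RefSeq the longest protein-coding gene of 16p is RBFOX1, a neuronal splicing factor gene of 2474 kb, in 16p13.3. Its place relative to the empty windows was not examined, since the builds differ.

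**Figure D2:**
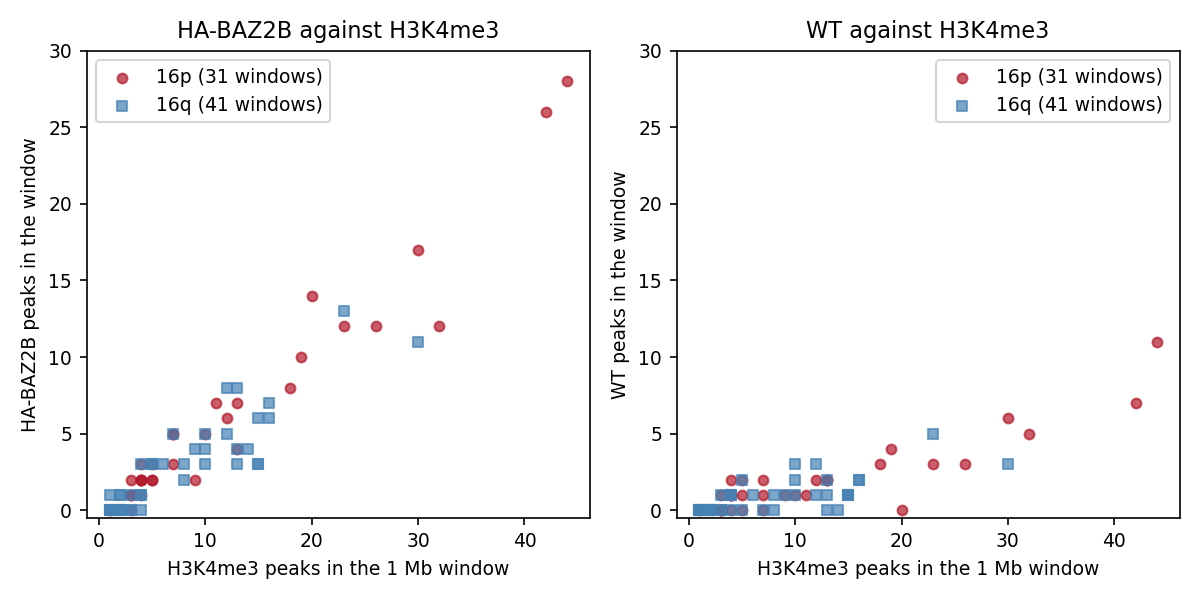
Each point is a 1 Mb window of 16p or 16q with at least 1 H3K4me3 peak, placed by its number of H3K4me3 peaks (x axis) and of HA-BAZ2B or WT peaks (y axis). The windows of 16p reach 44 H3K4me3 and 28 HA-BAZ2B peaks, and the window with 20 H3K4me3 and 14 HA-BAZ2B peaks has 0 WT peaks.

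The share of H3K4me3 peaks with an anti-HA peak was compared next, since the choice of the arm by position does not fix it. Of the 391 H3K4me3 peaks of 16p, 202 (51.7%, exact 95% interval 46.6 to 56.7%) overlapped an HA-BAZ2B peak by at least 1 bp, against 123 of 327 on 16q (37.6%, 32.3 to 43.1%). Among all H3K4me3 peaks outside 16p the share was 39.3%. The odds ratio of 16p over 16q was 1.77 (1.31 to 2.39; Fisher's exact test, two-sided, adjusted p = 0.000424 over 5 tests). Against the other chromosomes, where 6404 of 16300 peaks (39.3%, 38.5 to 40.0%) had an HA-BAZ2B peak, it was 1.65 (1.35 to 2.02; Fisher's exact test, adjusted p = 5.18e-06). Peaks are the units of these tests and neighbours are not independent, so the p-values describe these lists and not cultures. The arm was singled out with this share known, so they are not independent evidence either.

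WT peaks also overlapped a larger share of H3K4me3 peaks on 16p than on 16q. They overlapped 63 of 391 H3K4me3 peaks on 16p (16.1%, 12.6 to 20.1%), against 33 of 327 on 16q (10.1%, 7.05 to 13.9%) and 13.0% of all H3K4me3 peaks outside 16p. The odds ratio was 1.71 (1.09 to 2.68; Fisher's exact test, adjusted p = 0.0343). It was 1.57 and did not pass without the fullest window (Fisher's exact test, adjusted p = 0.105), nor did it pass with overlaps of at least 50% of the H3K4me3 peak (1.79, adjusted p = 0.171) or in windows of at least 10 H3K4me3 peaks (1.54, adjusted p = 0.175). Against the other chromosomes (2131 of 16300), the odds ratio of the WT share was 1.28 (0.972 to 1.68; Fisher's exact test, adjusted p = 0.102). It passed once peaks with a −log10 q under 5 were left out (1.46, Fisher's exact test, adjusted p = 0.0129). Whether the arms differed more in the HA-BAZ2B share than in the WT share was not tested.

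H3K4me3 peaks of higher significance carried an anti-HA peak more often, on 16p as elsewhere, so shares were also set side by side at like values. The authors' −log10 q is the significance of a peak and not its height above the background of its library. With the H3K4me3 peaks of chromosome 16 in 5 groups by −log10 q, the HA-BAZ2B share on 16p was 14.9, 36.6, 55.6, 66.7 and 80.2% from the lowest to the highest group. On 16q it was 14.3, 16.7, 46.3, 47.1 and 69.8%. The share on 16p was thus nearly the same as on 16q in the lowest group and higher in the other 4, and the intervals of the arms overlapped in each group. Over the groups, the common odds ratio was 1.83 (Mantel-Haenszel, 95% interval 1.31 to 2.55), close to the value without groups. If the H3K4me3 peaks of 16q had been spread over the groups as those of 16p are, their share would have been 39.9% in place of 37.6%. For the other chromosomes it would have been 45.1% in place of 39.3%, against 51.7% on 16p. The gap to the other chromosomes was therefore smaller at like values of −log10 q, where H3K4me3 peaks of 16p had a median of 48.9, against 41.7 on the other chromosomes.

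**Figure D3:**
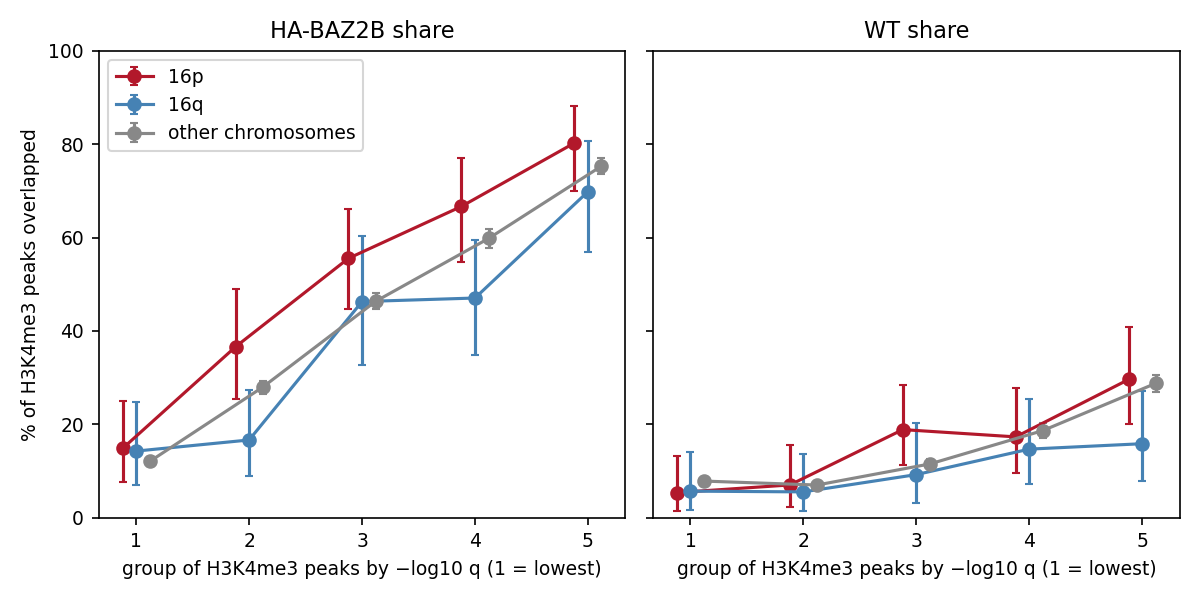
Percent of H3K4me3 peaks that overlap an HA-BAZ2B peak (left) or a WT peak (right) in 5 groups of H3K4me3 peaks by −log10 q, for 16p, 16q and the other chromosomes, with exact 95% binomial intervals. On 16p the HA-BAZ2B share goes from 14.9 to 80.2% and lies above that of 16q in every group, by little in the lowest.

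The HA-BAZ2B share varied little with the crowding of H3K4me3 peaks inside the arm. H3K4me3 summits on 16p lay a median of 18.0 kb from the next one, against 26.7 kb on 16q and 32.5 kb on the other chromosomes. On 16p, 114 of 391 (29.2%) had at least 4 other H3K4me3 summits within 50 kb, against 7.03% on 16q and 10.8% on the other chromosomes. The HA-BAZ2B share on 16p was 51.3% for H3K4me3 peaks with no such neighbour (40 of 78), 50.6% with 1, 50.9% with 2 or 3 and 53.5% with 4 or more. The WT share was 8.97, 15.3, 18.4 and 19.3% over the same groups, with intervals that overlapped. Windows of 16p with at least 10 H3K4me3 peaks had an HA-BAZ2B share of 53.0% (166 of 313), and windows with fewer had 46.2% (36 of 78, 34.8 to 57.8%). On 16q, these shares were 38.4 and 35.6%.

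**Figure D4:**
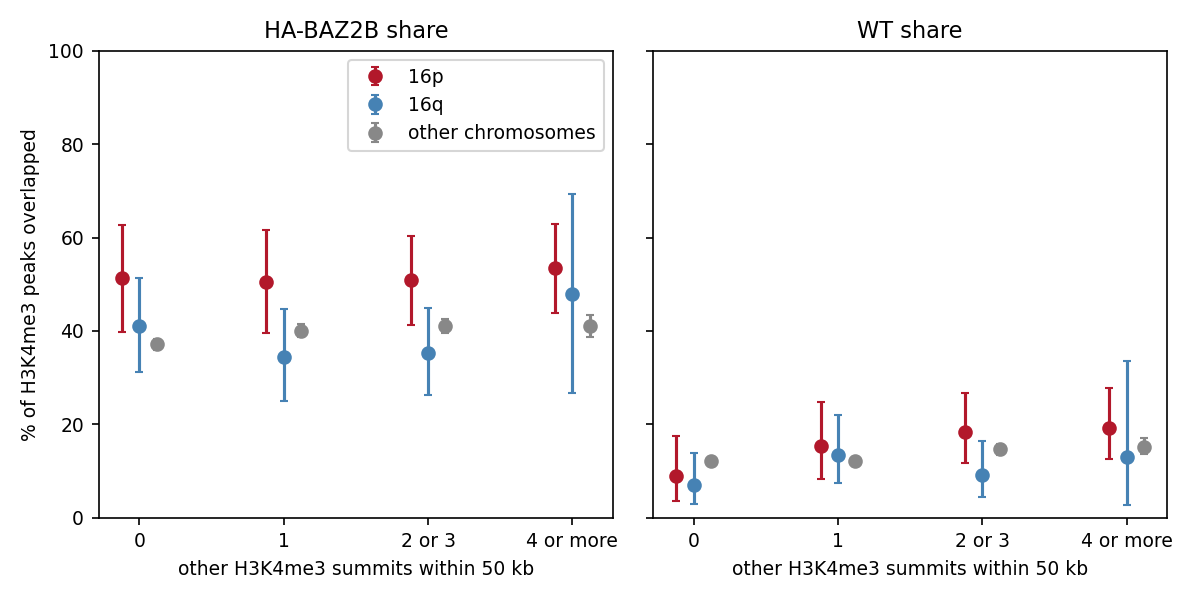
Percent of H3K4me3 peaks that overlap an HA-BAZ2B peak (left) or a WT peak (right), by the number of other H3K4me3 summits within 50 kb, with exact 95% binomial intervals. On 16p the HA-BAZ2B share lies between 50.6 and 53.5% in all 4 groups.

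Among the 14 windows of 16p with at least 10 H3K4me3 peaks, the HA-BAZ2B share ranged from 30.8 to 70.0%. It was highest from 28000001 to 29000000 in 16p11.2 (14 of 20, 45.7 to 88.1%), from 30000001 to 31000000 (29 of 44, 65.9%, 50.1 to 79.5%) and from 15000001 to 16000000 in 16p13.11 (7 of 11, 63.6%, 30.8 to 89.1%). It was lowest from 14000001 to 15000000 (4 of 13, 30.8%, 9.09 to 61.4%), in the first window of the chromosome (12 of 32, 37.5%, 21.1 to 56.3%) and from 31000001 to 32000000 (7 of 18, 38.9%, 17.3 to 64.3%). The intervals of these windows overlapped, so their order is not firm. Across the 14 windows, the share had a Spearman rho of 0.13 with the number of H3K4me3 peaks and of -0.08 with the WT share, as a description of windows from the same libraries.

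The window from 28000001 to 29000000 held 14 HA-BAZ2B peaks and 0 WT peaks. With 0 of 20 H3K4me3 peaks, the WT share there may still reach 16.8% (upper limit of the exact 95% interval), which is above the 16.1% of the whole arm. Its 14 HA-BAZ2B peaks had fold enrichments of 7.31 to 12.4, and its 20 H3K4me3 peaks of 6.54 to 15.7. The fold enrichment is the authors' ratio over the background of that library and is not scaled between lists. The window from 30000001 to 31000000 had 11 WT peaks, and 10 of its 28 HA-BAZ2B peaks overlapped one. A listed WT peak had to recur in at least 2 replicates: between the WT peaks at 27214783 to 27215137 and 29465330 to 29466267, which enclose the window without WT peaks, 16 numbers of the peak caller's running count were skipped. The WT library thus had at least 16 unlisted peaks across that stretch.

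The share of peaks that can have passed the filter for recurrence had a higher upper bound on 16p than on 16q in all 3 lists. Peak names carry a running number in genome order, and the numbers spanned by the listed peaks of an arm bound from below how many peaks that library had there before the filter. On 16p, at most 54.3% of HA-BAZ2B peaks (204 of 376), 27.6% of WT peaks (63 of 228) and 83.5% of H3K4me3 peaks (391 of 468) were kept. On 16q, these shares were at most 41.3% (125 of 303), 21.9% (37 of 169) and 79.8% (327 of 410). Bounds of this kind do not order the true shares. How far recurrence sets the HA-BAZ2B share of H3K4me3 peaks was not tested.

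Nearly all anti-HA peaks of 16p lay on H3K4me3. Of the 204 HA-BAZ2B peaks, 202 did so (99.0%, 96.5 to 99.9%). The share was much the same elsewhere, with 99.2% on 16q and 99.0% on the other chromosomes. All 63 WT peaks did (100%, 94.3 to 100%), against 33 of 37 on 16q (89.2%, 74.6 to 97.0%). On the other chromosomes, 93.3% (92.2 to 94.3%) of WT peaks lay on H3K4me3. Of the 63 WT peaks, 60 (95.2%, 86.7 to 99.0%) also overlapped an HA-BAZ2B peak, against 26 of 37 on 16q (70.3%, 53.0 to 84.1%) and 80.8% (79.1 to 82.4%) on the other chromosomes. The intervals of 16p and 16q did not overlap, a difference that was seen after the fact and was not tested. From the side of the tagged cells, 60 of 204 HA-BAZ2B peaks on 16p (29.4%, 23.3 to 36.2%) overlapped a WT peak, against 27 of 125 on 16q (21.6%, 14.7 to 29.8%) and 28.6% of all HA-BAZ2B peaks outside 16p. The odds ratio of 1.51 (0.898 to 2.55) did not pass (Fisher's exact test, adjusted p = 0.125).

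The 391 H3K4me3 peaks of 16p fell into 60 with both anti-HA peaks, 142 with HA-BAZ2B only, 3 with WT only and 186 with neither. Their median widths were 1492, 1354, 934 and 1032 bp and their median −log10 q values 60.9, 56.5, 47.2 and 37.4. On 16q, the same classes held 26, 97, 7 and 197 peaks, with median widths of 1540, 1316, 540 and 1041 bp. H3K4me3 peaks with HA-BAZ2B thus had higher medians of width and significance than those with neither anti-HA peak on both arms.

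The HA-BAZ2B peak of highest fold enrichment on the arm, though not of highest −log10 q, was also the one nearest the end of the chromosome. This peak was at 60026 to 60745 in 16p13.3. It had a fold enrichment of 16.2 over 720 bp and a −log10 q of 46.4, on an H3K4me3 peak of 12.7, and no WT peak. It was followed among peaks without a WT peak by 15149201 to 15150022 in 16p13.11, with 14.5, and by 30032378 to 30033082 in 16p11.2, with 14.3. The next were at 4303373 to 4304068 in 16p13.3, with 13.7, and at 15981702 to 15982537 in 16p13.11, with 13.6. These 5 peaks were 696 to 836 bp wide, below the median of 1238 bp for HA-BAZ2B on the arm, and their H3K4me3 peaks had fold enrichments of 12.2 to 14.7.

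Of the 5 HA-BAZ2B peaks of highest fold enrichment that overlapped a WT peak, 3 lay in 16p11.2. The highest was at 32686243 to 32687404 in 16p11.2, with a fold enrichment of 13.6 in the HA-BAZ2B list and 12.8 in the WT list. Those at 33262169 to 33263364 (12.2 in HA-BAZ2B, 11.1 in WT) and 33205666 to 33206837 (11.8 in HA-BAZ2B, 11.7 in WT) were in the same band. 16p11.2 has many segmental duplications, and whether these 3 peaks lie in duplicated sequence was not examined. The other 2 of the 5 highest were at 19566664 to 19567827 in 16p12.3, with 11.9 in HA-BAZ2B and 10.1 in WT, and at 3174150 to 3175014 in 16p13.3, with 11.5 in HA-BAZ2B and 4.85 in WT. Singled out after the values were seen, the WT peak of highest fold enrichment on the arm was at 1075130 to 1075768 in 16p13.3, with 15.8 in WT (−log10 q 83.4, 639 bp). The HA-BAZ2B peak on it spanned 373 bp, with a fold enrichment of 7.41 and a −log10 q of 8.70 in its own list. The H3K4me3 peak there spanned 531 bp, with a fold enrichment of 16.3. These values are not scaled between lists, so they do not rank the peaks by strength. The WT peak nearest the end of the chromosome was at 188489 to 188991 and was weak, with a fold enrichment of 5.29 and a −log10 q of 5.24, overlapping an HA-BAZ2B peak with a fold enrichment of 10.2.

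Only 2 HA-BAZ2B peaks of the arm had no H3K4me3 peak, and neither had a WT peak. The first was at 31153197 to 31154091 in 16p11.2, with a fold enrichment of 5.50 over 895 bp, 24.8 kb from the nearest H3K4me3 summit. The second was at 1393035 to 1393436 in 16p13.3, with 4.79 over 402 bp, 8.78 kb away. WT peaks with no HA-BAZ2B peak numbered 3, all on H3K4me3: at 12707330 to 12707709 in 16p13.12, with a fold enrichment of 6.65 in the WT list, at 29816858 to 29817395 in 16p11.2, with 5.34, and at 30418542 to 30419161 in 16p11.2, with 4.62. Both HA-BAZ2B peaks were below the median fold enrichment of their list on the arm (8.16), and so were the WT peaks in 16p11.2 (6.06 for the WT list), but not the one in 16p13.12.

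The 5 widest H3K4me3 peaks of 16p carried HA-BAZ2B. With the H3K4me3 peaks of chromosome 16 in 5 groups by width, 65 of the 84 peaks of 16p in the widest group did so (77.4%, 67.0 to 85.8%). Wide H3K4me3 peaks often carried HA-BAZ2B elsewhere too. In the same group the share was 56.7% (43.2 to 69.4%) on 16q and 62.8% (61.0 to 64.6%) on the other chromosomes. The widest, at 30075518 to 30078314 in 16p11.2, spanned 2797 bp and lay on the widest HA-BAZ2B peak of the arm, of 2831 bp, and on a WT peak. It was followed by 4321295 to 4323997 and 4365291 to 4367937 in 16p13.3, of 2703 and 2647 bp, with HA-BAZ2B peaks of 1708 and 1985 bp and without a WT peak. The next, at 30933248 to 30935826 in 16p11.2, spanned 2579 bp, with an HA-BAZ2B peak of 2166 bp and a WT peak. The last of the 5, at 21529483 to 21532032 in 16p12.2, spanned 2550 bp, with an HA-BAZ2B peak of 2260 bp and no WT peak. Their fold enrichments in H3K4me3 were low, from 4.51 to 5.73, against a median of 8.68 on the arm.

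Strong H3K4me3 peaks without any listed anti-HA peak were found in several bands. The most significant was at 28961875 to 28963179 in 16p11.2, with a −log10 q of 88.1 and a fold enrichment of 11.9. Those at 1020145 to 1021278 and 4400556 to 4401512 in 16p13.3 had 86.0 and 85.3, the one at 14013659 to 14014735 in 16p13.12 had 78.0, and the one at 31885069 to 31886079 in 16p11.2 had 74.9. All 5 were above the −log10 q of 65.3 from which the highest of the 5 groups began, where 80.2% of H3K4me3 peaks on 16p carried HA-BAZ2B. Anti-HA peaks that did not recur in at least 2 replicates are not listed, so such peaks may lie at these sites.

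The longest run of neighbouring H3K4me3 peaks that all carried HA-BAZ2B had 10 members over 247 kb of 16p13.3, from 2581669 to 2828346, and 2 of them also carried a WT peak. The HA-BAZ2B peaks of this run had fold enrichments of 4.01 to 12.4 and widths of 367 to 2142 bp. On 16q, no such run was longer than 4. The longest run without HA-BAZ2B had 7 H3K4me3 peaks over 645 kb of 16p11.2, from 31482920 to 32128263, with fold enrichments of 6.65 to 15.5 and no WT peak. The HA-BAZ2B peaks on either side of it, at 31469414 to 31471285 and 32198561 to 32199846, had 6 skipped numbers of the running count between them, so at least 6 HA-BAZ2B peaks of that library were there and were not listed. That was the largest number skipped between neighbouring HA-BAZ2B peaks of the arm. On 16q, the longest run without HA-BAZ2B had 13 H3K4me3 peaks, from 58717811 to 66639894. A higher share by itself gives longer runs, and the run lengths were not tested.

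Where 1 HA-BAZ2B peak matched 1 H3K4me3 peak, both had much the same extent. Over 199 such pairs on 16p, the ratio of their widths (HA-BAZ2B over H3K4me3) had a median of 0.914 (interquartile range 0.785 to 1.00), against 0.914 over 119 pairs on 16q. HA-BAZ2B was the wider peak in 52 of the 199 pairs. Summits lay a median of 85 bp apart on 16p and 71 bp on 16q. Across the pairs of 16p, which share libraries and neighbourhoods, fold enrichments had a Spearman's rho of 0.79 and widths one of 0.90, against 0.78 and 0.85 on 16q. Matched peaks of WT and H3K4me3, 63 on 16p and 33 on 16q, had a median width ratio of 0.492 and 0.416. Their rho was 0.46 for fold enrichment on 16p and 0.09 on 16q, against 0.22 over 2114 pairs on the other chromosomes. For width it was 0.39, 0.43 and 0.35 in the same order. Whether rho differed between the regions was not tested. H3K4me3 was profiled in the tagged cells alone, so in these pairs each partner comes from another line.

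**Figure D5:**
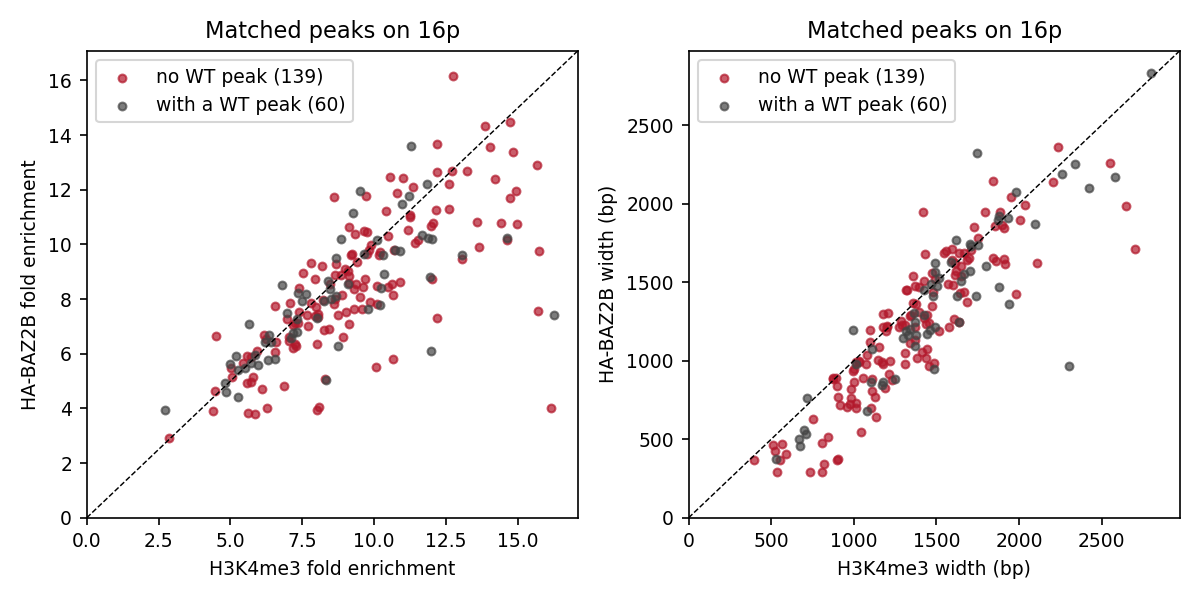
Fold enrichment (left) and width in bp (right) of the 199 HA-BAZ2B peaks of 16p that match 1 H3K4me3 peak, against those of the H3K4me3 peak, with the line of equal values dashed. Peaks with a WT peak (60) and without (139) lie along the same band, and rho over all pairs is 0.79 for fold enrichment and 0.90 for width.

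The anti-HA lists and the H3K4me3 list were also set side by side by strength and width, without a test. The median fold enrichment of HA-BAZ2B peaks was 8.16 on 16p (interquartile range 6.45 to 10.0), 8.29 on 16q and 8.16 on the other chromosomes, and their median width was 1238, 1250 and 1218 bp. WT peaks had a median fold enrichment of 6.06, 6.19 and 6.43 and a median width of 719, 590 and 637 bp in the same order. H3K4me3 peaks had a median fold enrichment of 8.68 on 16p, 8.98 on 16q and 9.09 on the other chromosomes, and a median width of 1242, 1173 and 1129 bp. Their median −log10 q was 48.9 on 16p, 47.8 on 16q and 41.7 on the other chromosomes. Medians of HA-BAZ2B peaks thus differed little between the regions, while WT and H3K4me3 peaks had their highest median width on 16p. Within the HA-BAZ2B peaks of 16p that lay on H3K4me3, those without a WT peak had a median fold enrichment of 8.45 and a width of 1220 bp, against 7.93 and 1384 bp for those with one. Over the 60 matched HA-BAZ2B and WT peaks of the arm, fold enrichments had a rho of 0.44 and widths one of 0.34, and the median widths were 1384 bp in HA-BAZ2B and 735 bp in WT.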

How the data were processed

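CUT&Tag was done in 9 libraries, and the authors deposited 1 peak list per group. Per the submitters' processing notes, Bowtie2 2.4.5, Picard, SAMtools 1.15.1, bedtools and MACS2 2.1.4 were used with the builds hg19 and dm6. The sources used here name no settings or control for peak calling. Per the labels, peaks seen in at least 2 replicates were kept with the rows of the largest replicate file, so every value is that of 1 library. For H3K4me3 replicates 2 and 3 the label's antibody entry ends in another number than the title, which was followed. Deposited fold enrichment is the authors' ratio over background, −log10 q the authors' significance, and start, end and summit offset are deposited positions in bp, and no value is scaled between lists. Depth is unknown.

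Only peaks on whole chromosomes entered comparisons, by overlaps of at least 1 bp. Shares have exact Clopper-Pearson 95% intervals, odds ratios Woolf intervals, and 5 Fisher tests were adjusted by Benjamini-Hochberg, with a threshold of 0.05. The Mantel-Haenszel odds ratio came from statsmodels 0.14.6. Intervals cover counting error over peaks only. hg19 bands came from circlize 0.4.16. Genes and promoters came from RefSeq tables of GRCh38.p14 and were placed by the bands of that build. Python 3.11.15, pandas 2.3.3 and scipy 1.17.1 were used. Overlap and Fisher steps were tested on simulated data. The members, peak rules and tests were chosen with earlier results of these data known. Peaks named are those of highest fold enrichment, width or −log10 q in each class (5 at most), the peaks nearest the chromosome end and the boundary, and the longest runs. Windows named are the 5 with most H3K4me3 peaks and the 3 highest and lowest shares. Promoter counts, neighbours within 50 kb and shares at the mix of 16p were added after seeing the lists.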

Additional observations from a re-analysis of the deposited data

How the results depend on the processing

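Alternatives were an overlap of 50% or by summit, a −log10 q of at least 5, and leaving out the first 1 Mb or the fullest window of 16p. Others were windows with at least 10 H3K4me3 peaks, H3K4me3 and HA-BAZ2B peaks of at least 500 bp, and groups by width for the common odds ratio. For window counts, windows were shifted by 0.5 Mb. For densities, the length of centromeric bands, or of centromeric and variable bands, was left out. Of 58 recomputed values, 53 kept their direction and their side of the threshold or stayed close to the reported value, and none turned direction. Close meant within the interval of the reported value or, for window counts, within a set ratio of the reported count. The odds ratio of the HA-BAZ2B share of H3K4me3 peaks ran from 1.65 to 1.86 for 16p over 16q and from 1.53 to 1.74 over the other chromosomes, past the threshold in each. None of these settings compared 16p with the other chromosomes at like values of −log10 q. At the mix of 16p, the share on the other chromosomes was 45.1% in place of 39.3%, against 51.7% on 16p. The WT share of 16p over 16q did not pass with a 50% overlap (1.79), without the fullest window (1.57) or in windows with at least 10 H3K4me3 peaks (1.54), and the cause was not tested. The WT share of 16p over the other chromosomes passed with a −log10 q of at least 5 (1.46). The H3K4me3 density ratio of 16p over 16q was 1.50 with the length of centromeric and variable bands left out and all peaks kept. That setting was chosen after seeing the data and takes a long stretch with few peaks out of the length of 16q. No paired analysis was possible because each group has 1 peak list and no value per replicate, and for the same reason no replicate could be left out.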
